A study of Caenorhabditis elegans with 12 samples.

Results

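The H3K9me2 peaks on the X chromosome of *C. elegans* were taken from the 2 peak lists of the study as all entries on Chromosome X in WS220/ce10 coordinates, and the lists were kept apart. X had 524 of the 10457 peaks listed for the *wdr-5* experiment and 358 of the 5883 listed for the *jhdm-1* experiment, which gives 882 X peaks of 16340. H3K9me2 ChIP-seq, in which DNA bound to histone H3 dimethylated at lysine 9 is pulled down with an antibody and sequenced, was performed on whole mixed-stage animals grown at 20°C. The *wdr-5* experiment compared wild type (N2) with *wdr-5 (ok1417)* mutants at early-gen, mid-gen and late-gen, 6 groups in all, and the *jhdm-1* experiment compared wild type (N2) with *jhdm-1 (ok2364)* mutants at early-gen and mid-gen, 4 groups in all. Early-gen, mid-gen and late-gen name increasing numbers of generations since a population was founded. Each mutant is a single allele, and whole populations were pooled, so a peak stands for all tissues and stages together. By the paper's methods the groups had 3 and 2 replicates, a peak was kept when 2 or more replicates of a single group had it, and each list is the union over its groups. The lists give a position for each peak and no coverage, score or depth, so no group could be compared with another, no value carries replicate error, and the depth of the libraries is unknown. The labels state that 2 wild-type libraries are used in both experiments, so the lists do not come from separate material.

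H3K9me2 is a mark of heterochromatin, the compact and mostly silent part of the genome. In *C. elegans* it is deposited in large part by the methyltransferase MET-2, it lies mainly on the repeat-rich arms of the autosomes, and it helps to hold these arms at the nuclear lamina. The chromosomes of this nematode have no single centromere, and their arms are recognised by higher recombination and more repeats than the gene-dense centres. X differs from the autosomes in ways that are known from earlier work. Its arms are less distinct, its left end rather than its right is the part held at the nuclear periphery, and its left end also carries the site that pairs the homologues in meiosis. In hermaphrodites X is bound by the dosage compensation complex, and in the germline it is kept largely silent. WDR-5 is a subunit of the COMPASS complex that methylates H3K4, and JHDM-1 is a predicted H3K9 demethylase.

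H3K9me2 peaks were sparse on X in both experiments. The *wdr-5* list covered 307.3 kb, or 1.73%, of the 17713380 bp of X, counted up to its last peak, and the autosomes were covered from 7.00% on Chromosome II to 13.9% on Chromosome III. The *jhdm-1* list covered 461.0 kb, or 2.60%, and the autosomes from 5.79% on Chromosome V to 10.0% on Chromosome I. X had 29.6 peaks per Mb in the *wdr-5* list and 20.2 in the *jhdm-1* list. The autosomes together had 4.07 times as many per Mb in the *wdr-5* list and 3.31 times as many in the *jhdm-1* list. By covered bases the gap was 5.47-fold in the *wdr-5* list and 2.88-fold in the *jhdm-1* list. In both lists X was the lowest of the 6 chromosomes. Each chromosome is a single value per list, so these differences were not tested.

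X was also the chromosome on which *jhdm-1* peaks covered most relative to *wdr-5* peaks. The ratio of covered bases, *jhdm-1* list over *wdr-5* list, was 1.50 on X. On the autosomes it was 0.617 on Chromosome III, 0.735 on Chromosome V, 0.819 on Chromosome I, 0.853 on Chromosome IV and 1.06 on Chromosome II. By number of peaks the ratio on X was 0.683, which was also the highest, but close to the 0.653 of Chromosome II. X therefore held fewer peaks in the *jhdm-1* list than in the *wdr-5* list, as every autosome did, and the greater coverage came with longer peaks. With peaks within 1 kb merged, the ratio of covered bases on X was 1.30. The numbers of libraries and of groups differ between the experiments, and how peaks were combined may differ too. The part of these in the ratio cannot be told apart from that of the mutants.

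The peaks of X gathered at its left end in both experiments. X was split into a left, a middle and a right part, each 1 of 3 equal stretches. The left part held 271 *wdr-5* peaks, or 51.7% (95% Wilson interval from 47.4% to 56.0%, which covers counting error only), the middle part 63, or 12.0%, and the right part 190, or 36.3%. The *jhdm-1* list had 192 peaks in the left part, or 53.6% (from 48.5% to 58.7%), 48 in the middle part, or 13.4%, and 118 in the right part, or 33.0%. The order of the parts was the same in both lists. It was sharper by covered bases in the *wdr-5* list, with 61.0% in the left part and 26.8% in the right. In the *jhdm-1* list these shares were 53.6% and 31.8%.

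The middle part of X was covered least, and it held a larger share of the peaks than the middle of every autosome in the *wdr-5* list but not in the *jhdm-1* list. The middle part held 12.0% of the X peaks of the *wdr-5* list, against 4.51% on Chromosome II to 9.09% on Chromosome IV. It held 13.4% of those of the *jhdm-1* list, against 5.48% on Chromosome II to 14.4% on Chromosome IV, so X came after Chromosome IV there. The tilt to the left was not particular to X. Of the peaks in the outer parts, 58.8% lay on the left on X in the *wdr-5* list and 61.9% in the *jhdm-1* list, and Chromosome IV was more lopsided with 68.1% and 69.2%. Chromosome V tilted the other way, with 24.0% and 35.2% on the left.

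The first 1 Mb of X was its fullest window in both lists, and within it the peaks gathered in the first 300 kb. In the *wdr-5* list it held 154 peaks, which were 29.4% of the X peaks and 42.6% of the covered bases, and 13.1% of this window was covered. In the *jhdm-1* list it held 75 peaks, 20.9% of the peaks and 21.2% of the covered bases, and 9.77% was covered. The first 300 kb alone held 39.3% of the *wdr-5* bases and 17.5% of the *jhdm-1* bases on X and was covered by 40.3% and 27.0%. From 300001 to 1000000 only 1.43% and 2.41% was covered, close to the 1.06% and 2.17% of X beyond the first 1 Mb. The remaining 17 windows of X were covered by 0.192% to 2.59% in the *wdr-5* list and by 0.175% to 6.67% in the *jhdm-1* list. The windows next to the left end and at the right end, from 1000001 to 2000000 and from 17000001 to 17713380, were the fullest of these, with 2.32% and 2.59% in the *wdr-5* list and 6.67% and 6.10% in the *jhdm-1* list. By covered bases the window from 16000001 to 17000000, with 22.7 kb, stood above the shorter last one, with 18.5 kb, in the *wdr-5* list. No autosome had so large a part of its *wdr-5* coverage in its fullest window. That share ranged from 20.0% on Chromosome II to 27.4% on Chromosome III, and on each of Chromosomes I to V the fullest window was 3.06 to 5.10 times as covered as the chromosome as a whole, against 7.55 times on X. In the *jhdm-1* list the fullest window was 3.76 times as covered as X and 1.89 to 2.98 times as covered as the autosomes. At the scale of 1 Mb the left end of X stood out against X and not against the left ends of the autosomes. Shorter stretches at the ends of the autosomes were not measured. The first 1 Mb was covered by 6.27% to 27.8% on the autosomes in the *wdr-5* list and by 6.52% to 19.0% in the *jhdm-1* list, and X lay within both ranges.

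**Figure D1:**
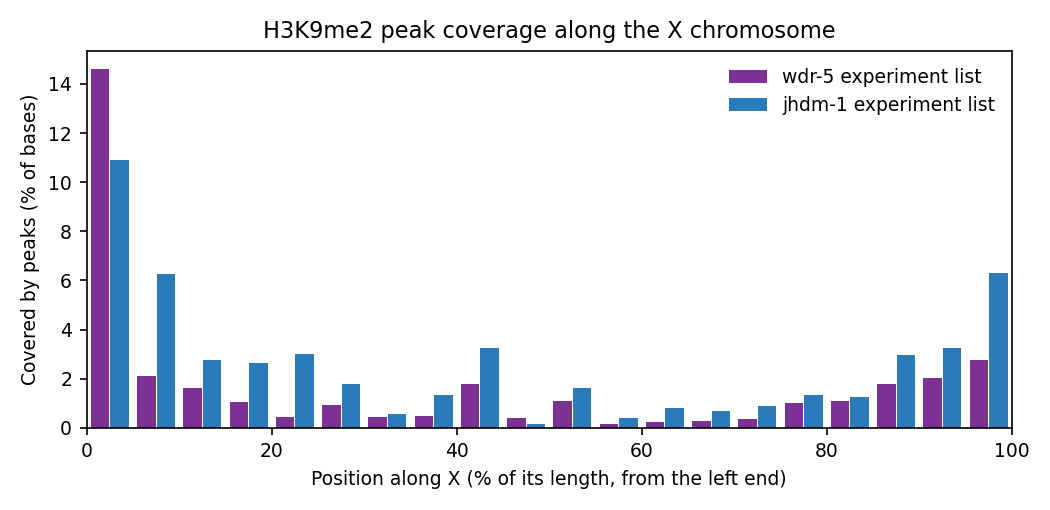
Share of bases covered by H3K9me2 peaks in 20 bins of equal length along X, from the left end (0%) to the right end (100%), for the *wdr-5* list (purple) and the *jhdm-1* list (blue). Each bar is 1 value from a pooled list and has no error bar. The leftmost bin stands at 14.6% in the *wdr-5* list and 10.9% in the *jhdm-1* list, and all other bins of the *wdr-5* list are at or below 2.78%.

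At the very left end the *wdr-5* list covered more of X than the *jhdm-1* list, and over most of the chromosome it covered less. Within the first 1 Mb, *wdr-5* peaks covered 130.9 kb and *jhdm-1* peaks 97.7 kb, a ratio of 0.747. This came from the first 200 kb, with 95.5 kb and 49.0 kb and a ratio of 0.513. From 200001 to 1000000 the *jhdm-1* list covered more, with 48.8 kb against 35.4 kb, a ratio of 1.38. Over the rest of X, *wdr-5* peaks covered 176.4 kb and *jhdm-1* peaks 363.3 kb, a ratio of 2.06. The *jhdm-1* list covered more bases than the *wdr-5* list in 15 of the 18 windows of 1 Mb and fewer in 3, with a median ratio of 1.80. The 3 exceptions were the first window, the window from 8000001 to 9000000 with a ratio of 0.342, where the *jhdm-1* list had only 2 peaks, and the window from 14000001 to 15000000 with a ratio of 0.924. The first 1 Mb and the shorter stretches within it were singled out after their values had been seen.

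The ratios in the middle and right parts of X were like those in the middle of the autosomes. In the middle part of the chromosomes the ratio of *jhdm-1* to *wdr-5* coverage was 1.66 on Chromosome I, 1.99 on II, 1.85 on III, 1.74 on IV and 1.77 on V, and it was 1.79 on X. On the outer parts of the autosomes it ranged from 0.462 to 1.14. On X it was 1.78 in the right part, within the range of the autosomal middles, and 1.32 in the left part, between the outer and the middle parts of the autosomes.

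**Figure D2:**
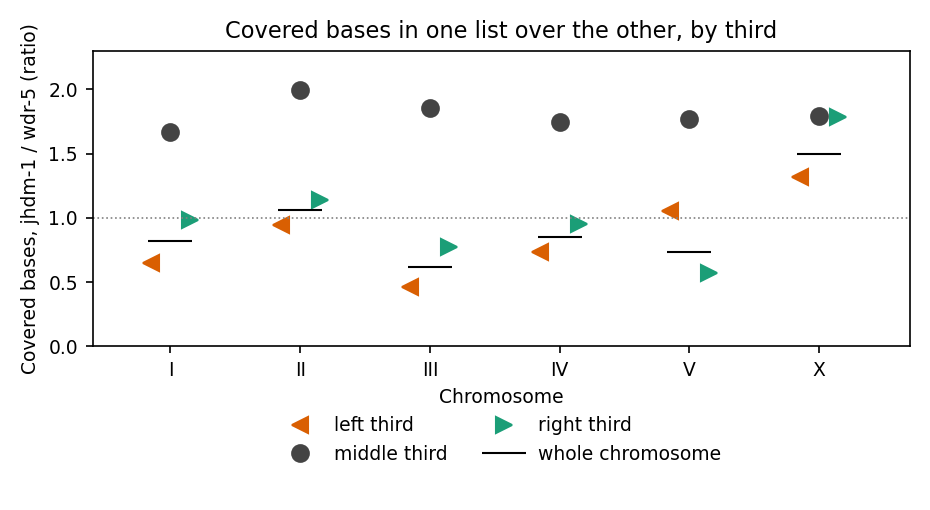
Bases covered by the *jhdm-1* list divided by bases covered by the *wdr-5* list, for each chromosome (horizontal bars) and for its left, middle and right parts of equal length (orange triangles, grey circles and green triangles). The dotted line marks equal coverage. The middle parts of all chromosomes lie between 1.66 and 1.99, and the right part of X (1.78) lies among them.

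The X peaks of the *wdr-5* experiment were short, and those of the *jhdm-1* experiment were not. The median X peak was 376.5 bp in the *wdr-5* list (quartiles 249.75 and 658.5 bp), and the medians of the autosomes ranged from 435.5 bp on Chromosome V to 564.5 bp on Chromosome III. It was 900 bp in the *jhdm-1* list (quartiles 478.5 and 1565.5 bp), and the autosomal medians ranged from 810.5 to 877 bp. X thus had the shortest median in one list and the longest in the other. Peaks of at least 200 and under 500 bp made up 54.2% of the *wdr-5* peaks on X and 39.9% of those on the autosomes. Peaks of at least 1000 and under 2000 bp made up 31.3% of the *jhdm-1* peaks on X and 26.5% of those on the autosomes. No *jhdm-1* peak on X was shorter than 200 bp, and 65 *wdr-5* peaks were, with the shortest at 46 bp. How peaks were combined within each experiment may differ, and its part in these lengths was not tested.

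Peak length also varied along X. In the *wdr-5* list the median was 490 bp in the first 1 Mb and 345.5 bp over the rest, and in the *jhdm-1* list it was 832 and 906 bp. In the right part of X the longest *wdr-5* peak was 1613 bp, from 16100147 to 16101759, while the longest *jhdm-1* peak there was 9645 bp. The covered bases were unevenly spread over the peaks. The longest 96 *wdr-5* peaks, 18.3% of those on X, held 50% of the covered bases, and in the *jhdm-1* list the longest 70 peaks, or 19.6%, did so.

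**Figure D3:**
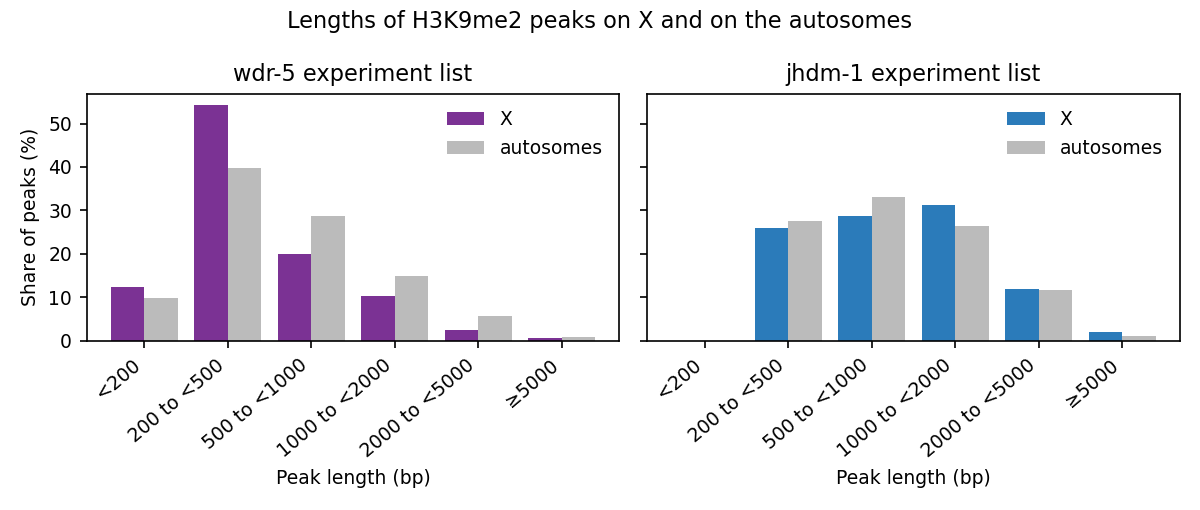
Share of peaks in 6 classes of length on X (coloured bars) and on the autosomes (grey bars), for the *wdr-5* list on the left and the *jhdm-1* list on the right. In the *wdr-5* list the class from 200 to under 500 bp holds 54.2% of the X peaks and 39.9% of the autosomal peaks, and in the *jhdm-1* list no peak is under 200 bp.

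Both experiments had their longest X peak at the same place, and this place was in the middle part of the chromosome. The *wdr-5* peak was 10164 bp long and ran from 7351291 to 7361454, at 41.5% of the length of X. The *jhdm-1* peak was 12816 bp long and ran from 7350603 to 7363418. The *jhdm-1* peak contained the *wdr-5* peak whole and reached 688 bp further to the left and 1964 bp further to the right. The *wdr-5* peak was 27.0 times as long as the median X peak of its list, and the *jhdm-1* peak 14.2 times as long as that of its own. Smaller peaks flanked it in both lists. To the left the *wdr-5* list had 3 peaks of 818, 661 and 616 bp between 7344200 and 7347337, where the *jhdm-1* list had 1 peak of 4214 bp from 7344565 to 7348778. To the right the lists had peaks of 1478 bp and 1405 bp that overlapped from 7364351 to 7365673. Gene models were not used here, so the genes and gene parts under this region and the others, and their bases, were not read.

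**Figure D4:**
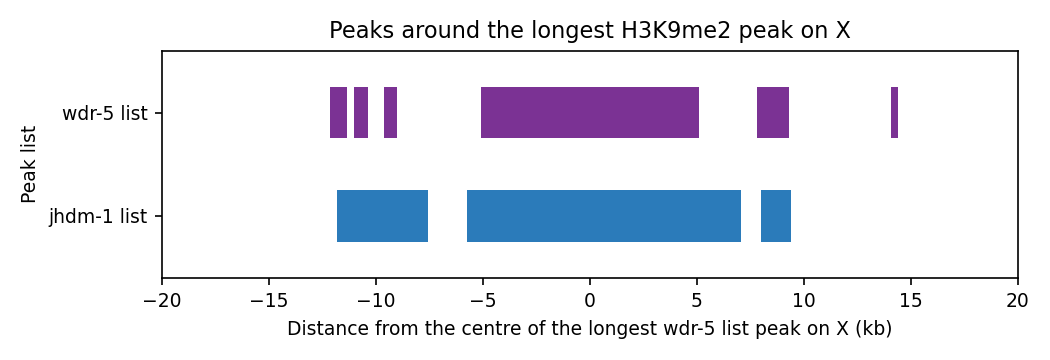
Peaks of the *wdr-5* list (purple) and of the *jhdm-1* list (blue) within 20 kb of the centre of the longest *wdr-5* peak on X, drawn to scale by distance from that centre in kb. The longest peaks of both lists, 10164 bp and 12816 bp, lie over each other, and the 3 short *wdr-5* peaks to their left stand against 1 *jhdm-1* peak of 4214 bp.

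The other long peaks of X differed between the lists. Those of the *wdr-5* list lay mostly at the left end. The next longest were 5966 bp from 89080 to 95045, 5204 bp from 186533 to 191736 and 4496 bp from 193944 to 198439, and only then came a peak away from the end, 4397 bp from 3073378 to 3077774. Those of the *jhdm-1* list lay toward the right end. The next longest were 9645 bp from 17703736 to 17713380, 9129 bp from 16829569 to 16838697, 7122 bp from 15396668 to 15403789 and 5991 bp from 16381294 to 16387284. Of the 3 *wdr-5* peaks of at least 5 kb on X, 2 lay in the left part and 1 in the middle part. Of the 7 such *jhdm-1* peaks, 5 lay in the right part, 1 in the middle and 1 in the left, and the latter ran over 5582 bp from 1535521 to 1541102.

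Some long *jhdm-1* peaks covered a string of short *wdr-5* peaks. The *jhdm-1* peak of 7122 bp met 8 *wdr-5* peaks of 55 to 1264 bp, the most for any peak on X, and these covered 47.8% of it. The peak of 9129 bp met 5 *wdr-5* peaks of 157 to 793 bp, which covered 24.3% of it. The peak of 9645 bp at the right end met 4, of which 2 lay near its left edge and 2 near its right edge, and 14.5% of it was covered. The *jhdm-1* peak of 5991 bp met none, and the nearest *wdr-5* peak was 39317 bp away. The *jhdm-1* peaks of 12816 bp and 5582 bp met 1 *wdr-5* peak each. In all, 44 *jhdm-1* peaks on X met 2 or more *wdr-5* peaks, while 3 *wdr-5* peaks met 2 or more *jhdm-1* peaks. Among the X peaks with an overlap this was 25.1% of the *jhdm-1* peaks, within the range of the autosomes from 20.2% to 26.9%, and 1.21% of the *wdr-5* peaks, against 1.70% to 5.14% on the autosomes.

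The peaks of X were clustered in both lists, and the *wdr-5* list had a larger share of gaps at short range. From one peak to the next, the median gap was 6091 bp for *wdr-5* peaks and 17983 bp for *jhdm-1* peaks. Of 523 gaps between *wdr-5* peaks 155 were under 1 kb, or 29.6%, and of 357 between *jhdm-1* peaks 15 were, or 4.20%. Spread evenly at random over X, as many peaks would give 2.97% and 2.05%, so the shares were 9.99 and 2.05 times those values. The *jhdm-1* list had no gap under 390 bp, where the shortest in the *wdr-5* list was 4 bp. An even spread has no such lower limit, so the values at 1 kb do not compare the clustering of the lists directly. At 5 kb the lists were closer, with 47.8% and 28.6% of the gaps below it, which was 3.42 and 2.90 times the shares of an even spread. On the autosomes, where peaks are denser, gaps under 1 kb made up 43.0% in the *wdr-5* list and 7.63% in the *jhdm-1* list. In windows of 100 kb the variance of the number of peaks was 12.5 times its mean in the *wdr-5* list and 4.33 times in the *jhdm-1* list, where even random spacing gives about 1. Without the first 1 Mb these values fell to 2.93 and 2.20, so most of this unevenness in the *wdr-5* list, and a large part in the *jhdm-1* list, came from the left end.

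Peaks no more than 5 kb apart were joined into groups to find the largest clusters. The 3 largest groups of *wdr-5* peaks lay side by side at the left end. They held 51 peaks from 1780 to 99067, 46 peaks from 120173 to 207464 and 25 peaks from 215834 to 263944, with 53.3%, 50.9% and 23.3% of their bases covered. The *jhdm-1* list had 25, 14 and 10 peaks in the same stretches and covered 30.4%, 22.2% and 42.4% of them. The third of these stretches was thus covered more by the *jhdm-1* list than by the *wdr-5* list, and the other two less. The largest groups of the *jhdm-1* list held 18 peaks from 13157 to 76336, 10 from 248373 to 286880 and 6 from 217804 to 243153, all at the left end as well. Away from the groups, 194 *wdr-5* peaks and 204 *jhdm-1* peaks had no neighbour within 5 kb, which was 37.0% and 57.0% of the X peaks.

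Large stretches of X had no peak. Gaps of at least 100 kb numbered 50 in the *wdr-5* list and 54 in the *jhdm-1* list and took up 55.9% and 58.6% of the chromosome. The longest ran over 662259 bp from 9627397 to 10289655 in the *wdr-5* list and over 897454 bp from 7824604 to 8722057 in the *jhdm-1* list. The longest stretch without a peak in either list was 371581 bp, from 9627591 to 9999171. Of the 178 windows of 100 kb, 23 had no covered base in either list, 27 were covered only by *wdr-5* peaks, 27 only by *jhdm-1* peaks and 101 by both. Since the depth is unknown, a stretch without a peak is not shown to be free of H3K9me2.

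At the scale of 1 Mb the lists followed the same course along X. Over the 18 windows, the covered bases of the lists had a Spearman's rho of 0.903 and a Pearson's r of 0.847, and without the first window these were 0.885 and 0.859. These are descriptions over neighbouring windows of lists that have wild-type libraries in common.

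At the scale of single peaks, about as many X peaks were shared as not when an overlap of 1 bp was counted, and other rules gave other shares. In the *wdr-5* list 248 of the 524 peaks overlapped a *jhdm-1* peak by at least 1 bp, or 47.3% (95% Wilson interval from 43.1% to 51.6%). In the *jhdm-1* list 175 of the 358 overlapped a *wdr-5* peak, or 48.9% (from 43.7% to 54.0%). With an overlap of 50% of the peak the shares were 41.0% of the *wdr-5* and 23.7% of the *jhdm-1* peaks, with a reciprocal overlap of 50% they were 10.1% and 14.8%, and without peaks under 500 bp they were 55.4% and 30.9%. By length they had 130818 bp in common, which was 42.6% of the *wdr-5* bases and 28.4% of the *jhdm-1* bases on X. The union of both lists covered 637.5 kb, or 3.60% of X, in 630 regions. The share of *wdr-5* peaks that overlapped was the highest of the 6 chromosomes, the others ranging from 38.2% on Chromosome III to 43.2% on Chromosome IV, and that of *jhdm-1* peaks was the lowest, the others ranging from 50.4% on Chromosome II to 64.0% on Chromosome V.

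These shares were set against the overlap that the positions on X itself would give. For each peak, the share of all start positions on X at which a peak of its length would meet a peak of the other list was computed, and the shares were averaged. For the *jhdm-1* peaks this was 4.55%, so the observed share was 10.8 times as high, and for the *wdr-5* peaks it was 3.74%, so the observed share was 12.6 times as high. The share of positions does not allow for the wild-type libraries that the lists have in common. The part of these libraries in the observed overlap was not tested. When positions were taken only within the same 1 Mb window, the shares were 8.73% and 7.63% and the ratios 5.60 and 6.21. Such windows keep the crowding at the left end only in part, since it lay mostly in the first 300 kb. On the autosomes, with all positions of the same chromosome, the ratios were 2.32 to 3.98 for *jhdm-1* peaks and 2.47 to 4.34 for *wdr-5* peaks. The sparse coverage of X allows a higher ratio, at most 22.0 for its *jhdm-1* peaks, where no autosome could exceed 6.70. Measured as the part of the remaining distance to 100%, the overlap of the *jhdm-1* peaks was 46.4% on X and 39.0% to 57.1% on the autosomes, so X lay within their range. For the *wdr-5* peaks it was 45.3% on X and 27.0% to 36.2% on the autosomes. No test was made of these differences, since peaks that lie in clusters are not independent.

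**Figure D5:**
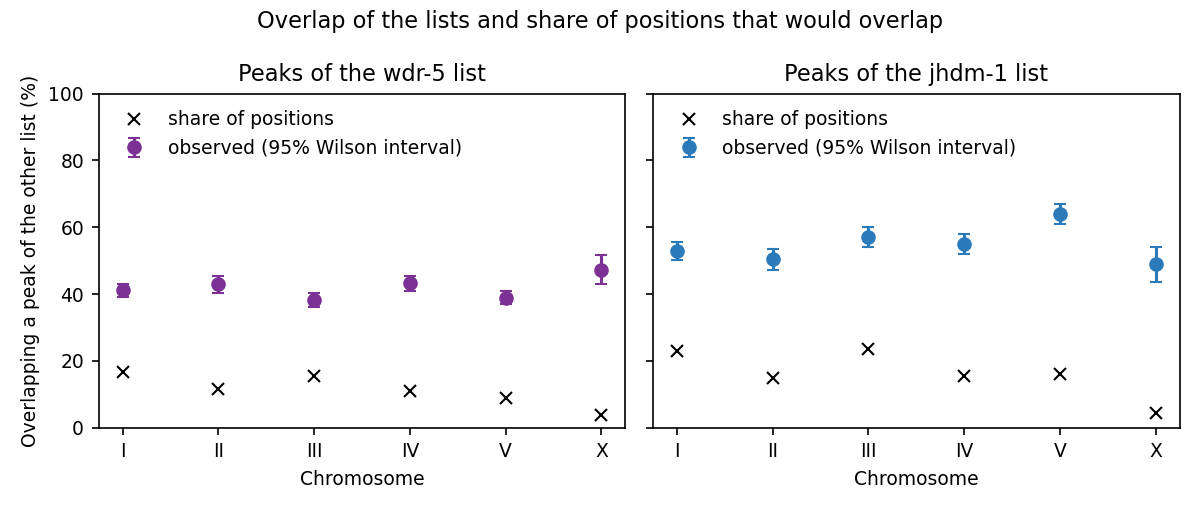
Share of the peaks of each chromosome that overlap a peak of the other list by at least 1 bp (circles, with 95% Wilson intervals for counting error) and mean share of positions at which they would (crosses), for the *wdr-5* list on the left and the *jhdm-1* list on the right. On X the crosses are lowest, at 3.74% and 4.55%, and the circles stand at 47.3% and 48.9%.

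The shares of overlapping peaks on X differed with place and length. In the first 1 Mb 73.3% of the *jhdm-1* peaks met a *wdr-5* peak (from 62.4% to 82.0%) and over the rest of X 42.4% did (from 36.8% to 48.2%). For *wdr-5* peaks the shares were 55.8% and 43.8%. All intervals here cover counting error only. Peaks that lie in clusters are not independent, so the intervals do not test whether the places differ. Within the first 300 kb 83.6% of the 55 *jhdm-1* peaks were shared (from 71.7% to 91.1%), and from there to 1 Mb 45.0% of 20 were (from 25.8% to 65.8%). The *wdr-5* list covered 40.3% of the first 300 kb and 1.06% of X beyond the first 1 Mb. More positions at the left end would therefore meet a *wdr-5* peak, and the share of positions was not computed for these stretches. By parts of X, 52.1% of the *jhdm-1* peaks were shared in the left part, 39.6% in the middle and 47.5% in the right, and these were not tested against each other. Within the middle part, where peaks are rarest, the observed share was 20.5 times that of the positions there, against 7.40 times in the left part. The positional shares were 1.93% and 7.04%, which allows a higher ratio in the middle part, so these ratios do not rank the parts. Of the 90 shortest *jhdm-1* peaks on X, at most 478 bp long, 33.3% were shared, and of the 89 longest, from 1589 bp, 62.9% were. Longer peaks meet more by position alone, and against positional shares of 2.59% and 7.64% these were 12.9 and 8.24 times as high. The ratio was lower for the long peaks, but so was the highest ratio possible. These ratios therefore do not rank the short and the long peaks. Among the *wdr-5* peaks there was no steady rise with length. In 4 classes of 131 peaks each, from the shortest to the longest, the shares were 39.7%, 45.8%, 37.4% and 66.4%, and the ratios to the positional share were 13.4 in the first and 12.7 in the last.

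Among overlaps on X of exactly 1 peak from each list, the longer one mostly came from the *jhdm-1* list. This held in 89 of 126 such pairs, or 70.6% (from 62.2% to 77.9%), and the *jhdm-1* peak was 1.79 times as long at the median. On the autosomes it held in 50.1% of 2114 pairs (from 48.0% to 52.3%) with a median ratio of 1.01, and single autosomes ranged from 43.6% on Chromosome III to 59.4% on Chromosome II. On X outside the first 1 Mb it held in 77.8% of 99 pairs (from 68.6% to 84.8%), and within the first 1 Mb in 44.4% of 27 pairs (from 27.6% to 62.7%). The *wdr-5* peak lay wholly inside the *jhdm-1* peak in 43.7% of the X pairs and in 23.7% of the autosomal pairs, and the reverse held in 20.6% and 34.5%. These intervals cover counting error only, and the difference between X and the autosomes was not tested. The autosomal pairs were not split by part, although the ratio of covered bases was 1.66 to 1.99 in the middle parts of the autosomes.

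Apart from the longest peaks at 7351291 and 7350603, the pairs with the most bases in common lay in the left part of X. The *wdr-5* peak from 3073378 to 3077774 shared 2806 bp with a *jhdm-1* peak of 2821 bp from 3074969 to 3077789, of which this was 99.5%. The *wdr-5* peak from 273380 to 276469 shared 2322 bp with a *jhdm-1* peak of 3696 bp from 274148 to 277843. The longest *wdr-5* peaks near the left end had smaller parts of their length in common with the *jhdm-1* list. The one of 5966 bp met 3 *jhdm-1* peaks that covered 15.5% of it, the one of 4496 bp met 2 that covered 18.3%, and the one of 5204 bp held a *jhdm-1* peak of 1789 bp whole, which was 34.4% of it.

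The unshared X peaks were often more than 10 kb from the other list, as many positions on X are. Of the 276 *wdr-5* peaks without an overlap, 15.9% lay within 1 kb of a *jhdm-1* peak and 49.6% more than 10 kb away. Of the 183 *jhdm-1* peaks without an overlap, 9.29% had a *wdr-5* peak within 1 kb and 58.5% had none within 10 kb. The median distance was 9773 bp and 14555 bp. Gaps of at least 100 kb took up 55.9% of X in the *wdr-5* list and 58.6% in the *jhdm-1* list. The distances were not set against those of positions on X, so they are not shown to be unusually long. The longest of these peaks in the *wdr-5* list, 2898 bp from 154957 to 157854, 2508 bp from 9781 to 12288 and 2496 bp from 24336 to 26831, all lay in the crowded left end. In the *jhdm-1* list, after the peak of 5991 bp, they were 4998 bp from 3567463 to 3572460 and 4467 bp from 9194442 to 9198908, in the left and middle parts.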

How the data were processed

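H3K9me2 ChIP-seq peaks of whole mixed-stage animals were used as the authors deposited them, 1 list of positions on WS220/ce10 for each of 2 experiments. The authors filtered reads, aligned them with Bowtie2, called broad peaks with MACS2 2.1.1 and combined them as given above. How the peaks were joined is not given in the sources used here. Members were all peaks on X, with no filter. The members and the quantities described were chosen with earlier results of these data known.

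Lengths, gaps, covered bases and overlaps were computed with Python 3.11.15, numpy 2.4.6 and scipy 1.17.1, counts of overlapping peaks were checked with bedtools 2.31.1, and figures were drawn with matplotlib 3.10.9. Starts are printed counted from 1. Peaks were placed by their centre, and covered bases were split at the borders of parts and windows. The length of a chromosome was taken as the highest end of any peak on it. An overlap was at least 1 bp. The share of positions was counted over all start positions and carries no p-value. The functions were tested on 20 simulated pairs of lists and gave the values of direct counting in all 20. Pooled lists hold no replicates, so no test between groups was made. The regions named are, in each list, the 5 longest peaks, the longest in each part, the 3 longest without an overlap, the 3 largest groups, the longest empty stretch, the 3 fullest windows and the 3 pairs with the most shared bases. The peaks beside the longest peak and those inside long *jhdm-1* peaks, the first 1 Mb, the stretches within it and the exceptions among the windows were named after their values were seen. Genes and sequences were not looked up, because their positions were at hand only for another build, WBcel235.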

Additional observations from a re-analysis of the deposited data

How the results depend on the processing

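For 13 results, 42 alternatives were set with earlier results known, 20 changed little (within the 95% interval of a share, or within 1.5 times), 22 moved further and 0 reversed. Counts, coverages and lengths have no direction that could reverse, so the 0 is no sign that the results are stable. With only peaks of at least 500 bp, X held 175 *wdr-5* peaks of a median 870 bp, 61.7% of them in the left part, 22.4% of gaps under 1 kb and 55.4% overlapping, and 30.9% of the *jhdm-1* peaks overlapped. With peaks within 1 kb merged, 43.6% of the *wdr-5* peaks lay in the left part, and by base pairs 61.0% did. With X in 4 parts, the leftmost held 46.9% of the peaks in the *wdr-5* list and 47.8% in the other. Distances under 1 kb between centres made up 16.1% in the *wdr-5* list and 0 in the *jhdm-1* list. The overlapping share of *jhdm-1* and *wdr-5* peaks was 28.4% and 42.6% by base pairs, 23.7% and 41.0% with an overlap of 50% of the peak, and 14.8% and 10.1% with a reciprocal overlap of 50%, and 55.7% of the *wdr-5* peaks lay within 1 kb. The ratio of the observed to the positional share of *jhdm-1* peaks was 17.2 with an overlap of 50%, 6.47 with peaks within 1 kb and 5.60 within 1 Mb windows. The cause of these moves was not tested where the rule itself does not set it. For 4 results, 10 alternatives were added after the values had been seen, and none moved by more than these limits. The ratio of covered bases on X stayed from 1.30 with peaks within 1 kb merged to 2.1 with peaks of at least 500 bp. Between 64.6% and 77.8% of the pairs had a longer *jhdm-1* peak. No paired analysis was possible because each list is pooled over replicates, and for the same reason no replicate could be left out. The lists have no score, so a minimum length stood in for a stricter threshold. Depth is unknown and limits every statement on missing peaks.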

Other observations

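Peak boundaries on X rarely coincided between the lists. In the 126 pairs in which 1 peak met 1 peak, the starts lay within 50 bp of each other in 19 pairs, the ends in 20 and both in 5, and 1 pair had the same start. The median distance was 235.5 bp between starts and 247.5 bp between ends, and the median pair had 318 bp in common. Toward the ends of the chromosome, the first X peak began at base 1780 in the *wdr-5* list, 506 bp long, and at 3824 in the *jhdm-1* list, 315 bp long, and these did not overlap. The last *wdr-5* peak, 393 bp from 17712951 to 17713343, lay inside the *jhdm-1* peak of 9645 bp that ended at 17713380.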
